A study of Mus musculus with 8 samples.

Results

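The genes described here are 10 genes of myeloid cells that were measured in mouse cells sorted as pro-B cells: S100a8, S100a9, Lyz1, Lyz2, Csf1r, Tyrobp, Fcer1g, Cebpa, Elane and Ctsg. They were taken by their symbols in the array files, which gave 12 probes of 39429, 3 of them for Csf1r and 1 for each other gene. All 12 were well above background on at least 2 of the 8 arrays and entered the test, and none was saturated. Cells came from BALB/c Rag1 null mice, which cannot rearrange antigen receptor genes, so that B cell development stops at the pro-B stage. There were 4 groups of 2 arrays: fetal liver (FL) cells with let-7b in an MSCV retrovirus, FL cells with the empty MSCV vector, adult bone marrow (BM) cells with Lin28b in the pMIG retrovirus, and BM cells with the empty pMIG vector. FL cells were pooled from on average 8 embryos at day 16 of gestation and BM cells from 2 mice. Cells of a sort were divided between a virus and its empty vector. All groups were grown on OP9 stromal cells with IL-7, and GFP-positive cells were sorted 4 days after transduction. Lin28b is known to bind let-7 precursors and hold back their processing, and the comparisons ask what each of the pair changes against its empty vector.

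Myeloid and B cells share early progenitors, and the choice between them is set in part by transcription factors such as C/EBP alpha (Cebpa), which drives granulocyte genes, and PU.1 (Spi1), which both lineages use at different doses. Granulocytes fill their granules with proteases such as neutrophil elastase (Elane) and cathepsin G (Ctsg), and their cytosol with S100a8 and S100a9, the subunits of calprotectin. Macrophages and monocytes carry the receptor for colony stimulating factor 1 (Csf1r) and secrete lysozyme, and Tyrobp and Fcer1g are adaptor proteins that link activating receptors of myeloid cells to the kinase Syk.

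Both gene pairs in the set are neighbours in the genome. In mm9, the build of the array design, the S100a8 probe lies at chr3:90473778-90473837 on the plus strand and the S100a9 probe at chr3:90496573-90496632 on the minus strand, 22735 bases apart. The Lyz2 probe lies at chr10:116719175-116719234 and the Lyz1 probe at chr10:116724862-116724921, both on the minus strand and 5627 bases apart. Which exon or untranslated part a probe lies in was not analysed here. The probes of S100a8, Lyz2 and Tyrobp are shown because the array reads these genes through them, the last a single probe of 60 bases whose ends lie at chr7:31200651-31202378 (plus strand), so that it spans 1728 bases of genome.
S100a8 probe: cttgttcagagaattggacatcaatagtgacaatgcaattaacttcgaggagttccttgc
Lyz2 probe: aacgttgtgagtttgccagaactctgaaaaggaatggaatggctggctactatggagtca
Tyrobp probe: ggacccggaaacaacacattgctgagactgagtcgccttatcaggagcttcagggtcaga

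The 250 bases before the start of S100a8, S100a9, Lyz1 and Lyz2 are shown because they are the only members that lie in neighbouring pairs and S100a8 and S100a9 were bright on the same arrays. They are RefSeq sequences of build GRCm38.p6, at chr3:90668821-90669070 (plus), chr3:90695722-90695971 (minus), chr10:117292869-117293118 (minus) and chr10:117282273-117282522 (minus), and are printed 5′ to 3′ towards the gene. Capitals mark matches, on either strand, to TTNNGCAA (a core of the C/EBP site), GAGGAAG (the core that PU.1 binds) and TATAAA (the TATA box).
S100a8 promoter: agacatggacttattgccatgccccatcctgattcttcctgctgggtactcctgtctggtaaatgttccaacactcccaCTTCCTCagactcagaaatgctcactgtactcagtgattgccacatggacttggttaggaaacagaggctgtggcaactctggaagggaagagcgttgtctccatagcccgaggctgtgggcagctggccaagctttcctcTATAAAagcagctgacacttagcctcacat
S100a9 promoter: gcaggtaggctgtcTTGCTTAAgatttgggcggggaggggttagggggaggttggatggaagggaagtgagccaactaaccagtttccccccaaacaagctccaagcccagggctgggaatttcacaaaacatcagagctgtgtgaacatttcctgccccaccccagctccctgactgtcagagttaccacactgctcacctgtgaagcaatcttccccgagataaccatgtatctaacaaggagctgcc
Lyz1 promoter: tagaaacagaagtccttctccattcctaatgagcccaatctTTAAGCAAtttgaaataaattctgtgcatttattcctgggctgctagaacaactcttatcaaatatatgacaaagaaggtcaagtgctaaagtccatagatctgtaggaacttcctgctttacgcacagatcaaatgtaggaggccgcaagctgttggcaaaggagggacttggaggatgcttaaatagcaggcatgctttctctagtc
Lyz2 promoter: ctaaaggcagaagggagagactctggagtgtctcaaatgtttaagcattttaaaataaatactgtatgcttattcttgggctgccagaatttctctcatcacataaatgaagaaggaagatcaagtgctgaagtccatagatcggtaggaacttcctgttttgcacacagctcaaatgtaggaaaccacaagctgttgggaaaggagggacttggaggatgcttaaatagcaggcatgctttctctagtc
S100a8 held a match to the PU.1 core on the minus strand at base 80 of the window and a TATA box at base 221. S100a9 and Lyz1 each held 1 match to the C/EBP core, at base 15 on the minus strand and base 42 on the plus strand, and the Lyz2 window held none of the 3 motifs. None of these matches overlapped another. Among the other members, the Elane and Ctsg windows held the PU.1 core and the Cebpa and Ctsg windows a TATA box. The Fcer1g window held none of the motifs, and no window was at hand for Tyrobp and Csf1r. Such matches are common: of 32851 mouse promoter windows of this length, 9.56% held the C/EBP core, 10.6% the PU.1 core and 12.4% the TATA box. The Lyz1 and Lyz2 windows were identical at 79.4% of aligned positions. Whether the probes tell these close copies apart was not tested.

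The 4 BM arrays lay on 1 slide, and the FL arrays on 2 others, replicate 1 of both FL groups on the second and replicate 2 on the third. FL arrays were dimmer, with a 75th percentile of spot intensity of 488 and 467 with let-7 and 485 and 271 with empty vector, against 2234 and 2074 with Lin28b and 1925 and 2137 with empty vector in BM. Between 24286 and 29531 spots per array were well above background. Levels are log2 of the intensity relative to the 75th percentile of the array, and intensities are given unscaled. The lowest level well above background was -5.63 on the first let-7 and -5.65 on the first FL empty vector array. It was -4.69 and -4.49 on the second of each, and between -7.14 and -6.87 on the BM arrays. A gene at the same level can thus be well above background on some slides and not on others. The introduced Lin28b was read at 2842 and 2183 on the BM Lin28b arrays, and not well above background at 3.36 and 4.63 on the BM empty vector arrays. A further Lin28b probe read 38.5 and 38.4 with Lin28b and 20.1 and 26.7 with BM empty vector, the last not well above background. In FL that probe read 432 and 436 with let-7 and 1341 and 428 with empty vector. All 13 pro-B cell markers on the array were well above background on all 8 arrays, among them Pax5, Vpreb1 and Ebf1. In such bulk RNA, a few cells of a type with much of a transcript and many cells with little cannot be told apart.

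In the test across all probes (limma, Benjamini-Hochberg adjustment over 28410 probes, called below an adjusted p of 0.05), no member probe was called with Lin28b or with let-7, and 8 of 12 were called between the empty vector cells of FL and BM. With Lin28b in BM, 0 of 12 were called, against 0.00352% of all probes. An unadjusted p under 0.05 was reached by 0 of 12 and by 984 of all 28410 probes. Both Lin28b arrays lay beyond both empty vector arrays in 12 of 12 probes, 6 higher and 6 lower, where 51% of all probes did so. With let-7 in FL, 0 of 12 were called, against 0.0246% of all probes (0.0176% higher and 0.00704% lower). An unadjusted p under 0.05 was reached by 3 of 12 and by 2740 of all 28410 probes. The FL groups did not overlap in 1 probe that was higher and 2 that were lower with let-7, beside 29.9% of all probes. Between FL and BM empty vector cells, 6 probes were higher and 2 lower in FL, where 39.1% of all probes were called higher and 19.8% lower, 58.9% in all. These tissues did not overlap in 9 probes that were higher in FL and 2 that were lower, beside 53.7% and 28.9% of all probes (82.6% together). Of all calls 66.4% were higher in FL, but 46.1% with quantile scaling, which calls 6 of the 12 probes and 24% of all probes higher and 28% lower. Counts of other gene lists between the tissues are to be read beside these shares of all probes. The 3 comparisons share their empty vector arrays. In FL over BM, tissue goes together with slide and with the vector (MSCV or pMIG), so these cannot be told apart. The members' median difference was 0.04 with Lin28b, -0.19 with let-7 and 1.82 in FL over BM, and the median of all probes was -0.04, -0.05 and 0.47. The members' share of calls between tissues was thus near that of the array as a whole. At this group size the smallest p of a two-sided exact permutation test is 0.333, and the p-values measure the spread between these arrays, which are not stated to come from separate sorts. Each SE and p draws on a spread shared by all groups, so those in BM also carry the FL spread. The median gap between replicates (log2) was 0.11 with Lin28b and 0.12 with empty vector in BM. In FL it was 0.31 with let-7 and 0.40 with empty vector. With the BM arrays fitted alone, 3809 of all probes had an unadjusted p under 0.05 with Lin28b, and 2 were called.

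**Figure D1:**
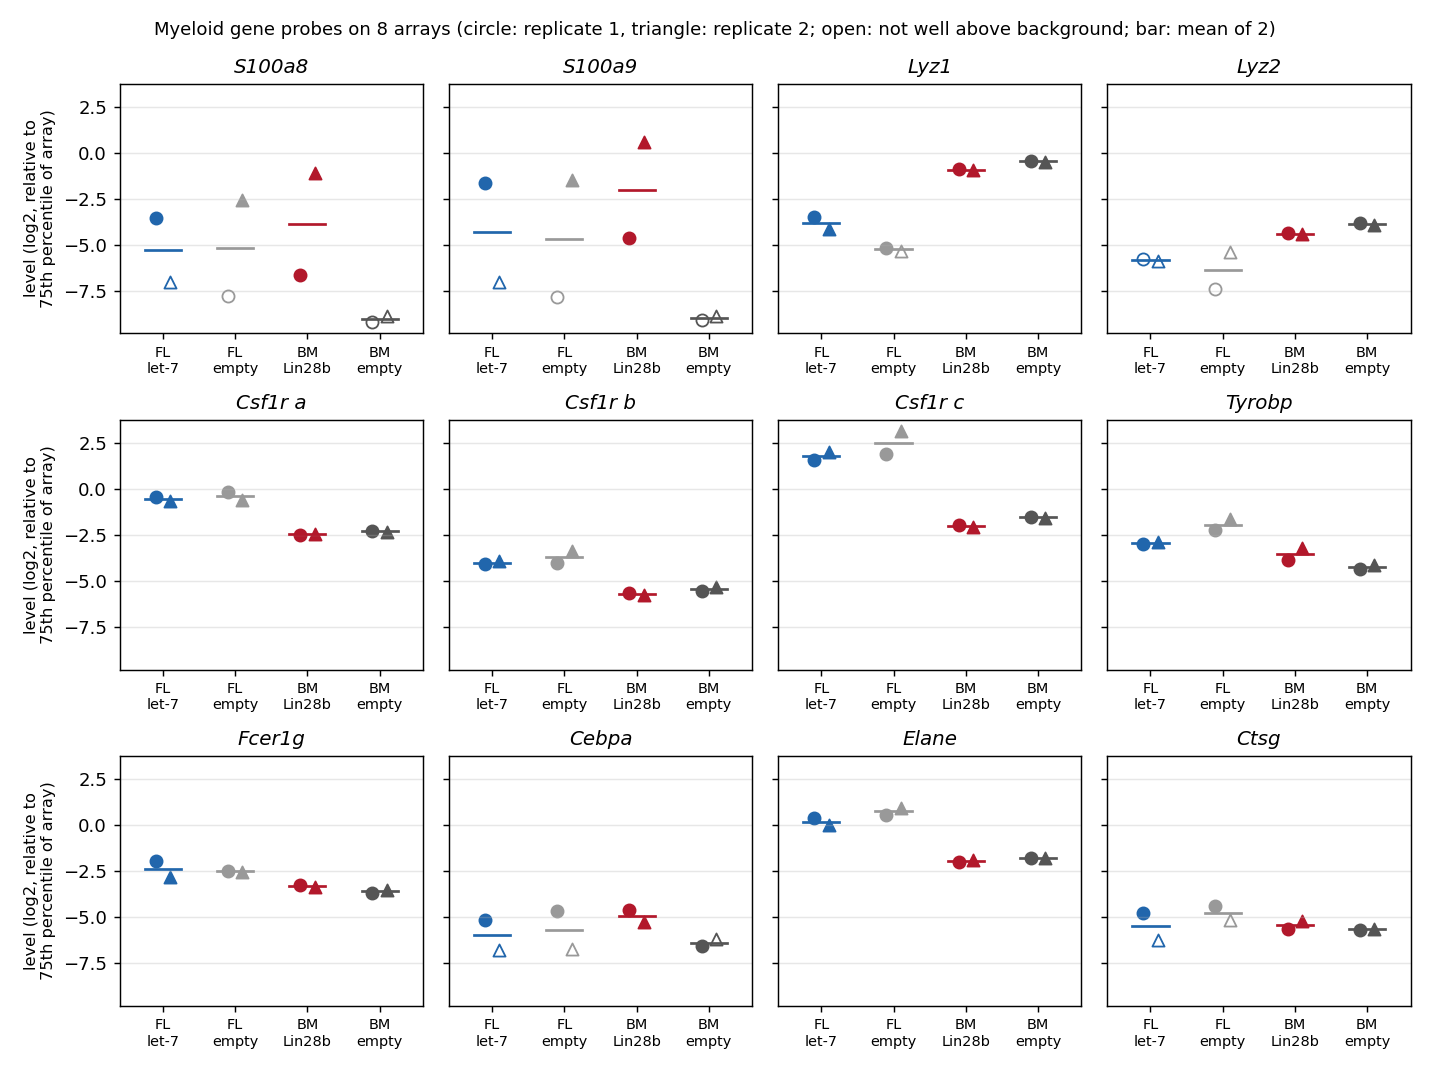
Level of each of the 12 probes on each array (log2, relative to the 75th percentile of the array), with circles for replicate 1, triangles for replicate 2, open symbols where the probe was not well above background and a bar for the mean of 2. S100a8 and S100a9 were well above background on 4 of 8 arrays each, while Csf1r, Tyrobp, Fcer1g and Elane were so on all 8.

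S100a8 and S100a9 were each well above background on 4 of 8 arrays, and brightest on the second Lin28b array. S100a8 read 41.4 and 3.65 on the FL let-7 arrays and 2.18 and 46.1 on the FL empty vector arrays. In BM it read 22.4 and 977 with Lin28b, and 3.31 and 4.67 with empty vector. S100a8 was thus above background on the first let-7 array, the second FL empty vector array and both Lin28b arrays, and on neither BM empty vector array. S100a9 followed the same arrays, at 155 and 3.66 with let-7, 2.12 and 97.0 with FL empty vector, 91.8 and 3063 with Lin28b, and 3.56 and 4.57 with BM empty vector. The second Lin28b array carried the highest reading of both genes, and on both Lin28b arrays they lay above both of their controls.

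On the log2 scale S100a8 differed by 5.15 ± 2.48 (SE, 2 arrays per group) and S100a9 by 6.95 ± 2.89 with Lin28b in BM, both with an adjusted p of 1. Since the controls were not well above background, these are given as at least 8.13-fold and at least 29.1-fold higher, where a dim control spot counts as the lowest signal well above background on its array. The second Lin28b array carried these sizes: the first alone was 1.18-fold above that limit for S100a8 and 4.86-fold for S100a9. Over all settings the differences ran between 2.21 and 7.92 for S100a8 and between 3.37 and 9.54 for S100a9, lowest with normexp background correction. Without the second Lin28b array the differences were 2.37 and 4.37, and without the first 7.92 and 9.54. With let-7 in FL, S100a8 differed by -0.10 ± 2.48 and S100a9 by 0.34 ± 2.89 (adjusted p 0.996 and 0.985). The 2 replicate numbers went opposite ways, and in each pair 1 array was not well above background. With dim readings raised to that limit the differences were 2.09 and -2.13 for S100a8 and 4.00 and -3.21 for S100a9. In FL over BM empty vector, S100a8 differed by 3.83 ± 2.48 (adjusted p = 0.225) and S100a9 by 4.31 ± 2.89 (adjusted p = 0.240), neither called. The first FL array was not well above background and lay below the BM limit, so no fold bound is given. The second FL array alone was 20.1-fold above that limit for S100a8 and 42.3-fold for S100a9.

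The gap between the 2 arrays of a group is given as a description of these arrays. With Lin28b the gap of S100a8 was 5.56 and of S100a9 5.17, the 7th and 11th widest of 28410 probes, where the 99th percentile was 1.69. In FL 1 array of each pair was not well above background, and its reading was raised to the detection limit of its array. The gap of S100a9 was then 3.04 with let-7 and 4.16 with FL empty vector, and that of S100a8 1.13 and 3.09, beside 99th percentiles of 2.65 and 3.097 over all probes as measured. Neither gene was well above background on a BM empty vector array. Single bright spots of other genes stood beside them on the Lin28b arrays, such as the vomeronasal receptor Vmn2r106 (3.24 and 222) and the olfactory receptor Olfr1013 (3.68 and 189), both chosen after their values were seen. Vmn2r106 also split the BM empty vector arrays, at 215 and 4.59. S100a8 and S100a9 are read by separate spots and were well above background on the same 4 arrays.

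**Figure D2:**
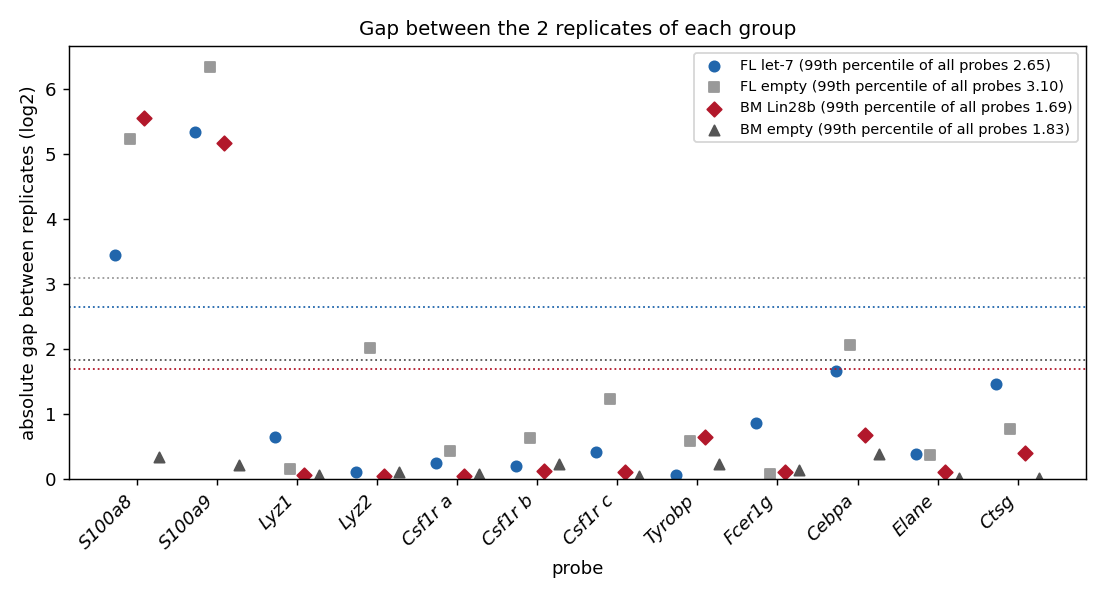
Absolute difference between the 2 replicates of a group (log2) for each probe, with a colour and symbol per group and dotted lines at the 99th percentile of all 28410 probes in that group. S100a8 and S100a9 exceeded the line in BM Lin28b cells, at 5.56 and 5.17. Their plotted gaps in FL are taken against readings not well above background and are not exact.

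Granule genes of neutrophils were read on the same arrays. On the second Lin28b array Camp, the precursor of an antimicrobial peptide, read 319 against 64.4 on the first, and 58.8 and 70.2 on the BM empty vector arrays. Ltf, lactoferrin, read 172 on the second and 35.7 on the first Lin28b array, and Chil3, a chitinase-like secreted protein, 65.8 and 19.3. Ngp read 65.3, Retnlg 99.5 and Mpo, myeloperoxidase, 34.6 on the second Lin28b array, and none of these 3 was well above background on any other array. These genes were chosen after their values were seen, and others of the list, Mmp8, Mmp9, Cd177, Pglyrp1 and Ms4a3, were not well above background on that array. In all 11 of the 16 were so on the second Lin28b array and 7 on the first. Of the 16 genes in the list 9 passed the filter, and 7 of these 9 were higher on the second than on the first Lin28b array, 4 by more than 1 on the log2 scale, beside 1.53% of all probes. None of the 9 was called with Lin28b (median 0.11, 6 positive) or with let-7 (median -0.18, 3 positive). In FL over BM 2 were higher and 2 lower, beside 39.1% and 19.8% of all probes. With quantile scaling 0 of the 9 were higher and 2 lower.

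In FL not all of the granule genes followed calprotectin on every array. On the first let-7 array all 9 granule genes lay higher than on the second, 6 by more than 1 on the log2 scale, where 12.6% of all probes did. Several other lists were shifted the same way on that array. Higher were 13 of 13 macrophage, 5 of 5 mast cell, 5 of 5 dendritic cell and 9 of 9 T and NK cell genes. Not all were shifted: 6 of 13 pro-B cell genes and 4 of 8 myeloid transcription factors lay higher there. On the first FL empty vector array, on the same slide, 10 of 13 macrophage genes but 3 of 9 T and NK cell genes lay higher than on the second. Camp read 79.2 and 25.6 on the let-7 arrays, and Chil3 21.2 and 3.76, the second not well above background. On the second FL empty vector array, where S100a8 and S100a9 were bright, 2 of 9 granule genes, Camp and Ltf, were higher in level than on the first. Camp had a level of -3.20 there and -3.47 on the first, and Ltf, Chil3 and Mpo were not well above background there. The lowest level well above background was -4.49 on that array, -5.65 on the first FL empty vector array and -7.14 on the second Lin28b array. Readings not well above background thus cannot show whether Ltf, Chil3 and Mpo followed calprotectin there. Il1r2, a decoy receptor for interleukin 1 that neutrophils carry, read 79.5 on the second FL empty vector array, its highest of the 8. A pair of further genes was brighter on the second than on the first Lin28b array. Pira2, a receptor that pairs with Fcer1g, read 428 and 252 on the second and first, and Itgax, the dendritic cell integrin CD11c, 94.5 and 3.75. Pira2 was also well above background on both BM empty vector arrays and differed by 0.63 ± 0.76 with Lin28b, which was not called.

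**Figure D3:**
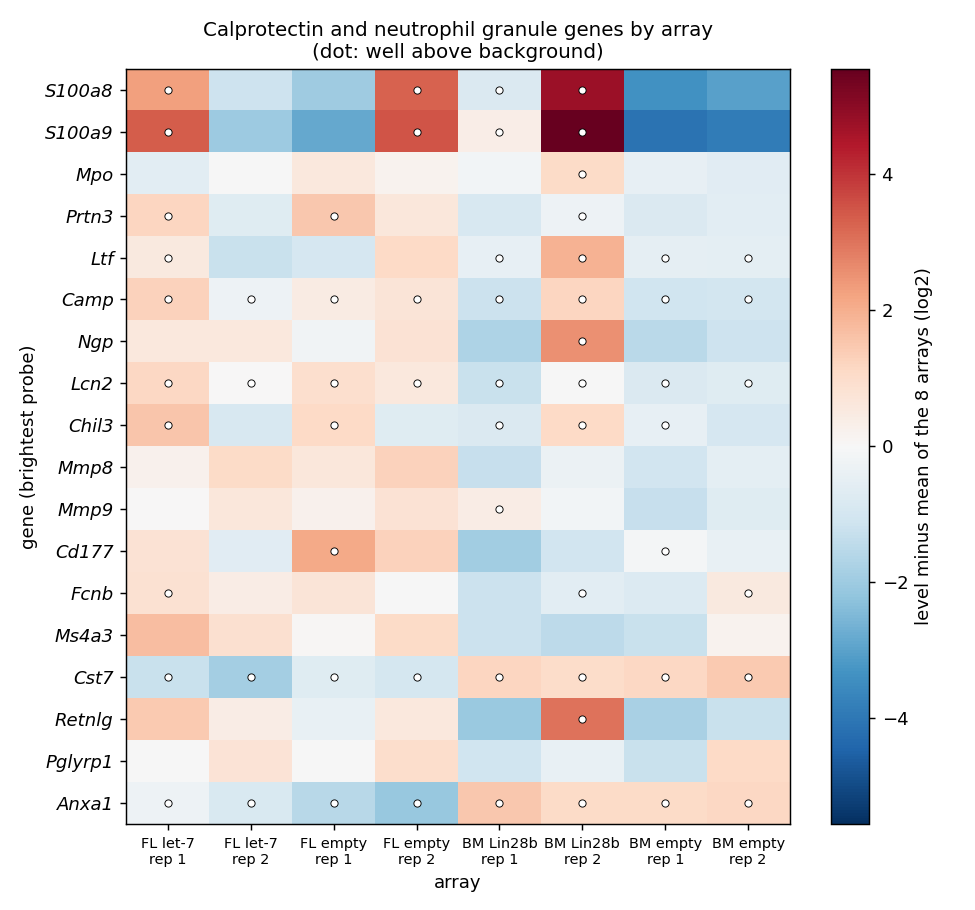
Level of S100a8, S100a9 and 16 neutrophil granule genes on each array minus the mean of the 8 arrays for that probe (log2, brightest probe per gene), with white dots where the probe was well above background. The second BM Lin28b array was high for S100a8, S100a9, Ltf, Camp, Ngp and Retnlg, and the second FL empty vector array was high for S100a8 and S100a9.

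Most markers of the OP9 stroma lay higher with Lin28b, in another pattern over the arrays, but none was called. Their summed signal was 57.1 and 37.7 times the 75th percentile on the Lin28b arrays, against 22.3 and 26.7 on the BM empty vector arrays. Of 13 tested, 12 lay higher (median 1.02), beside 11316 of all 28410 probes. All 13 were higher on the first than on the second Lin28b array, the reverse of calprotectin. Their median difference, second minus first, was -0.57, beside 0.02 over all probes. In FL the sums were 22.0 and 16.7 with let-7, against 10.8 and 14.3 with empty vector. The part of stromal RNA in the myeloid values was not tested. Erythroid markers had sums of 0.185 and 0.249 with Lin28b against 0.213 and 0.197 with BM empty vector.

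Lyz1 and Lyz2 were the members that fell in FL. Lyz1, a lysozyme gene that in mouse is best known from Paneth cells of the gut, read 42.7 and 26.2 with let-7 and 13.5 and 6.82 with empty vector in FL. In BM it read 1208 and 1070 with Lin28b, and 1416 and 1504 with empty vector. Every BM reading lay far above every FL reading. Lyz1 fell by 4.76 ± 0.23 on the log2 scale in FL over BM empty vector (adjusted p = 0.000382), and the second FL array was not well above background, so that the size is not exact. Over all settings the difference ran between -7.25 without scaling and -2.03 with normexp, and it was called in each.

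Lyz2, the lysozyme of macrophages and neutrophils, read 8.91 and 7.93 with let-7 and 2.88 and 6.52 with empty vector in FL, none well above background. It read 108 and 96.7 with Lin28b and 136 and 140 with empty vector in BM, all well above background. Lyz2 fell by 2.51 ± 0.61 in FL (adjusted p = 0.0155), at least 2.29-fold lower. The call was lost with slide as a random block and with only these 2 groups fitted (adjusted p = 0.0582 and 0.0583), and without BM empty vector replicate 1 or 2 (adjusted p = 0.0716 and 0.0638). Without FL empty vector replicate 1 the difference was -1.51, and with normexp background correction the difference was 0.73.

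Among the members, Lyz1 had the smallest adjusted p with let-7. It differed by 1.40 ± 0.23 over FL empty vector (adjusted p = 0.157), 1.65 between the replicate 1 arrays. FL empty vector replicate 2 was not well above background, and raised to its limit it gave 0.34 between the replicate 2 arrays. Quantile scaling made it a call (1.60, adjusted p = 0.0433), as did slide as a random block (adjusted p = 0.0356), and over all settings the difference ran between 0.46 and 1.80 with an adjusted p of 0.0356 to 1. Lyz2 differed by 0.56 ± 0.61 (adjusted p = 0.837), with no FL array well above background. With Lin28b in BM, Lyz1 differed by -0.45 ± 0.23 and Lyz2 by -0.52 ± 0.61 (adjusted p of 1 for both), and in both genes the 2 Lin28b arrays lay below the 2 controls. The lysozymes and calprotectin thus lay on opposite sides of the controls on the Lin28b arrays.

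Csf1r, the receptor of macrophages for the growth factors Csf1 and Il34, was read by 3 probes, called a, b and c in their order along the gene. Probe c read 1448 and 1850 with let-7 and 1796 and 2375 with empty vector in FL, and 580 and 497 with Lin28b and 673 and 726 with empty vector in BM. Its FL readings were higher than its BM readings even before scaling. Probe a read 366 and 297 with let-7 and 426 and 177 with empty vector in FL, and 399 and 382 with Lin28b and 401 and 421 with empty vector in BM. Probe b, the dimmest of the 3, ran from 26.4 to 54.2 over the 8 arrays.

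In FL over BM empty vector the probes rose by 1.90 ± 0.19 (a), 1.74 ± 0.24 (b) and 4.05 ± 0.40 (c), with adjusted p of 0.000972, 0.00225 and 0.00102. The 3 probes agree in direction but not in size. Quantile scaling gave 1.67, 0.73 and 3.87, where b was no longer called (adjusted p = 0.162). Without scaling, probes a and b turned to -0.58 and -0.75, and c stayed at 1.56. With let-7 the 3 differed by -0.13 ± 0.19, -0.32 ± 0.24 and -0.73 ± 0.40, and with Lin28b by -0.16 ± 0.19, -0.27 ± 0.24 and -0.47 ± 0.40, none called. Each difference was negative in both contrasts, and the sign of a and b with let-7 turned without scaling (0.26 and 0.0746).

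The ligand Csf1 read 822 and 781 with let-7 and 684 and 575 with empty vector in FL, and 4848 and 4088 with Lin28b and 2900 and 3692 with empty vector in BM, a difference of 0.36 ± 0.22 with Lin28b (adjusted p = 1). In the list of myeloid cytokines and their receptors, 11 of 14 genes were tested, and 7 were higher and 1 lower in FL over BM, beside 39.1% and 19.8% of all probes, with none called in the other contrasts. Csf2rb, the shared signalling chain of receptors for interleukin 3 and GM-CSF, was 0.91 ± 0.12 higher in FL (adjusted p = 0.00192) and Csf2ra, the GM-CSF binding chain, fell by 0.77 ± 0.21 (adjusted p = 0.022). With quantile scaling, 2 of the 11 were called higher and 2 lower. Il6ra, an interleukin 6 receptor chain, differed by 1.14 ± 0.40 with Lin28b (adjusted p = 1), with 981 and 1397 against 570 and 442.

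The adaptors Tyrobp and Fcer1g were well above background on all 8 arrays. Tyrobp, also known as DAP12, read 62.2 and 62.4 with let-7 and 103 and 86.2 with empty vector in FL, and 152 and 221 with Lin28b and 93.7 and 122 with empty vector in BM. Its groups did not overlap in either transduction, higher with Lin28b and lower with let-7. The difference was 0.69 ± 0.29 with Lin28b (adjusted p = 1) and -0.99 ± 0.29 with let-7 (adjusted p = 0.383), so neither was called. In FL over BM empty vector Tyrobp rose by 2.30 ± 0.29 (adjusted p = 0.00178), by 1.68 with quantile scaling, and without scaling it turned to -0.19.

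Fcer1g, the gamma chain of Fc receptors, read 125 and 65.6 with let-7 and 87.8 and 46.7 with empty vector in FL, and 233 and 202 with Lin28b and 152 and 186 with empty vector in BM. Its groups overlapped in FL. Fcer1g rose by 1.09 ± 0.28 in FL over BM (adjusted p = 0.0203). That call was lost with quantile scaling (0.48, adjusted p = 0.184), with slide as a random block (adjusted p = 0.0609) and when any 1 of the 4 arrays compared was left out (adjusted p 0.058 to 0.096), and without scaling the difference was -1.39. With Lin28b it differed by 0.28 ± 0.28 and with let-7 by 0.10 ± 0.28.

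Receptors that pair with these adaptors, and their kinase Syk, were listed too. Of 20 genes 12 were tested, with 6 higher and 1 lower in FL over BM (median 0.91), beside 39.1% and 19.8% of all probes, and none called in either transduction. Oscar, a collagen receptor of the osteoclast lineage that uses Fcer1g, was 2.30 ± 0.18 higher in FL (adjusted p = 0.000668), and the high-affinity Fc receptor Fcgr1 2.59 ± 0.40 (adjusted p = 0.00329). Fcgr3, a low-affinity Fc receptor, fell by 0.77 ± 0.24 (adjusted p = 0.036), and Syk rose by 1.57 ± 0.27 (adjusted p = 0.00478). With quantile scaling 5 of the 12 were called higher and 3 lower. Trem2, a lipid receptor that signals through Tyrobp, read 832 and 493 with Lin28b against 259 and 247 with BM empty vector (1.25 ± 0.27, adjusted p = 1), and 83.2 and 77.8 with let-7 against 45.3 and 35.3 with FL empty vector (0.61 ± 0.27, adjusted p = 0.551).

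Cebpa, the C/EBP alpha gene, lay near the limit of detection. It read 14.0 and 4.22 with let-7 and 18.97 and 2.54 with empty vector in FL, and 91.7 and 53.4 with Lin28b and 20.2 and 29.2 with empty vector in BM. Only the first array of each FL group, both Lin28b arrays and the first BM empty vector array were well above background. Cebpa levels on the first FL arrays were -5.13 with let-7 and -4.67 with empty vector. Both lay below the lowest level well above background on the second array of the group (-4.69 and -4.49). Cebpa differed by 1.44 ± 0.82 with Lin28b (adjusted p = 1), by -0.25 ± 0.82 with let-7 (adjusted p = 0.963) and by 0.68 ± 0.82 in FL over BM (adjusted p = 0.504). The sign of the let-7 difference turned under quantile scaling (0.20), and that of FL over BM too (-0.95), which was called with normexp (1.95, adjusted p = 0.0448). Cebpa was higher on the first than on the second Lin28b array, unlike calprotectin.

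Elane, neutrophil elastase, was as bright in BM as in FL before scaling. It read 633 and 465 with let-7 and 715 and 520 with empty vector in FL, and 560 and 561 with Lin28b and 560 and 618 with empty vector in BM. Relative to the dimmer FL arrays it rose by 2.53 ± 0.20 in FL over BM (adjusted p = 0.000674), by 2.38 with quantile scaling, and by 0.05 without scaling, where it was not called (adjusted p = 0.884). With let-7 it differed by -0.56 ± 0.20 (adjusted p = 0.466) and with Lin28b by -0.16 ± 0.20 (adjusted p = 1). Ctsg, cathepsin G, read 18.1 and 6.28 with let-7 and 23.3 and 7.68 with empty vector in FL, and 45.3 and 55.5 with Lin28b and 38.0 and 42.4 with empty vector in BM. The second FL array of each group was not well above background for Ctsg, and none of its differences was called (0.90 ± 0.51 in FL over BM, adjusted p = 0.178; -0.20 with quantile scaling). Neither protease matched the rise of S100a8 and S100a9 on the second Lin28b array. Elane read 560 and 561 on the Lin28b arrays. Ctsg was 0.40 higher on the second than on the first, a gap ranked 3951 of 28410 probes, where the median gap was 0.11.

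Of 10 other transcription factors of myeloid cells, 8 were tested. None was called with either transduction, and in FL over BM 1 was higher and 3 lower, beside 39.1% and 19.8% of all probes. Spi1, which encodes PU.1, rose by 0.97 ± 0.16 in FL (adjusted p = 0.00405). Irf8, a factor of monocytes, dendritic cells and B cells, fell by 0.99 ± 0.12 (adjusted p = 0.00143), the immediate early gene Egr1 fell by 1.29 ± 0.15 (adjusted p = 0.00137) and Id2, an inhibitor of helix-loop-helix factors, fell by 1.03 ± 0.27 (adjusted p = 0.0204). With quantile scaling, 0 of the 8 were called higher and 4 lower. Egr1 differed by 1.30 ± 0.15 with let-7 (adjusted p = 0.0854; called with quantile scaling), with 271 and 209 against 98.8 and 54.9. Cebpe, which drives late granule genes, was well above background on the second Lin28b array alone, at 29.3.

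**Figure D4:**
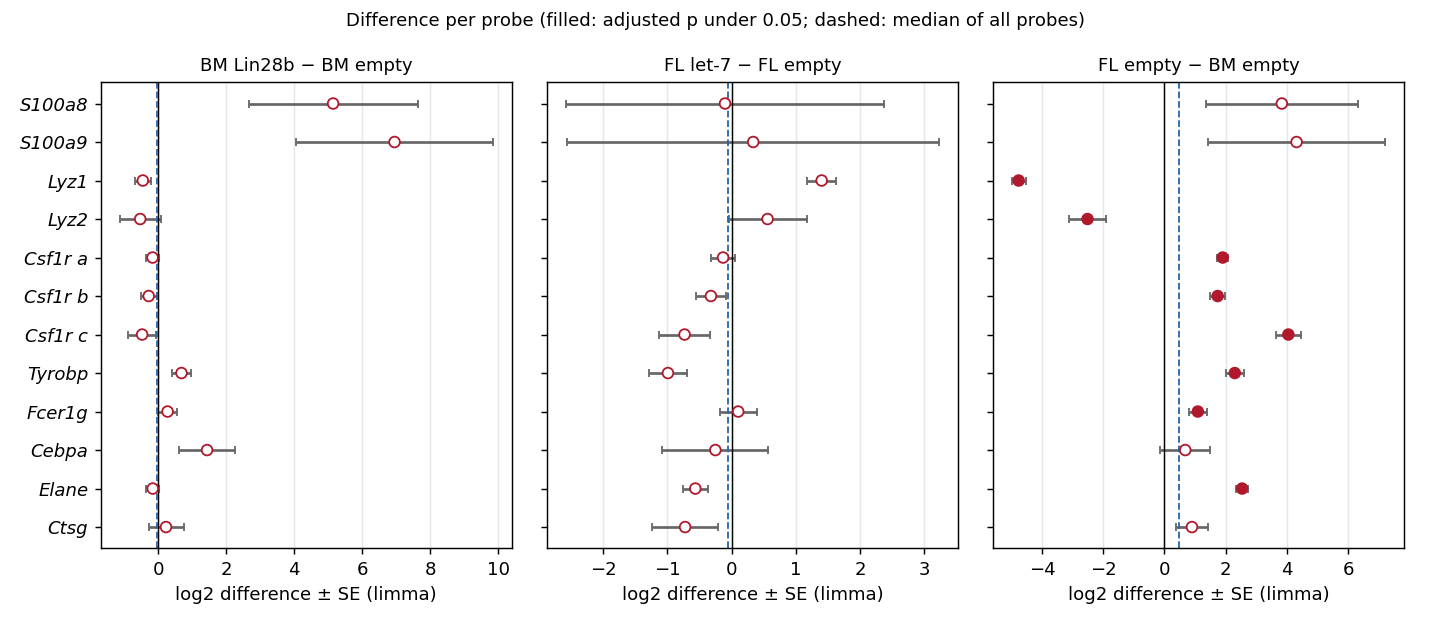
Log2 difference of each probe with its standard error (limma, 2 arrays per group) for Lin28b over empty vector in BM, let-7 over empty vector in FL and FL over BM empty vector, filled where the adjusted p was under 0.05 and with a dashed line at the median of all probes. The filled points lie in the last panel alone, 6 higher and Lyz1 and Lyz2 lower.

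Markers of macrophages and monocytes were read for the cells a sort could also hold. Of 18 genes 13 were tested, with 3 higher and 0 lower in FL over BM, beside 39.1% and 19.8% of all probes. None was called in either transduction. C1qa, a complement subunit of macrophages, was called higher (adjusted p = 0.00223), at 26.5 and 24.1 against 12.7 and 14.9 in BM, neither BM array well above background. The macrophage receptor Adgre1 (F4/80) was 2.32 ± 0.49 higher in FL (adjusted p = 0.00978) and the scavenger receptor Marco 2.29 ± 0.56 (adjusted p = 0.0167). With quantile scaling 2 were called higher and 1 lower. Of the 18 genes, 8 were well above background on all arrays, among them C1qb, Itgam, Mpeg1 and Ctss. A further 5, C1qc, Msr1, Ccr2, Cd163 and Timd4, were so on none. On the second Lin28b array, Adgre1 read 75.3 against 36.9 on the first, and Cd68 22.4 and 21.7. The list's summed signal was 17.1 on each Lin28b array, against 17.3 and 18.2 with BM empty vector, and in FL 65.8 and 31.7 with let-7, against 67.8 and 27.6 with empty vector. The integrin gene Itgam alone made up 40.0% to 81.9% of that sum. Without Itgam the sums were 14.4 and 12.2 with let-7, against 12.3 and 10.5 with FL empty vector, and 10.3 and 9.94 with Lin28b, against 9.01 and 9.49 with BM empty vector. The part of such cells in the values was not tested.

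Of 5 tested markers of mast cells, basophils and eosinophils, 2 were higher and 1 lower in FL over BM. The shares of all probes were 39.1% and 19.8%. The mast cell tryptase Tpsb2 differed by 2.95 ± 0.29 (adjusted p = 0.00102) and Il1rl1, a receptor for interleukin 33, by -2.44 ± 0.64 (adjusted p = 0.0205). The mast cell genes Cpa3 and Cma1 and the basophil gene Mcpt8 were not well above background on any array. With quantile scaling the counts were 2 and 1 again. None was called with Lin28b or let-7. Platelet markers gave 1 of 3 higher in FL over BM, beside 39.1% of all probes. Pf4, a platelet chemokine, read 17.7 and 43.3 on the first and second Lin28b array, and was not well above background elsewhere.

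The profiles most like those of the members were sought over all named genes, after each tissue's mean over its arrays was taken off. Likeness is Pearson's r over the 8 arrays, which share slides and cell preparations, and is given as a description. S100a8 and S100a9 were each other's nearest (r = 0.99). Next to S100a9 came Jakmip1 (r = 0.95) and Morn1 (r = 0.94), and next to S100a8 came Morn1 and the granule gene Ltf (r = 0.95 for both). Nearest to Lyz1 were Armc3, Tgfb3 and Ctla2a (r = 0.99 for each), and nearest to Csf1r probe c were the histone gene H2ac18, Cdh22 and B130034C11Rik (r = 1.00, 1.00 and 0.99). With dim readings raised to the limit of their array, the members spanned 7.47 (S100a9), 5.82 (S100a8), 5.19 (Csf1r probe c) and 4.72 (Lyz1) over the 8 arrays on the log2 scale. The likeness of S100a8 and S100a9 uses readings not well above background on 4 of 8 arrays.

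The authors' deposited table of normalized log2 values placed calprotectin on the same arrays. In the authors' deposited table, S100a9 stood at 7.38 and 5.06 with let-7, 5.13 and 7.58 with FL empty vector, 7.09 and 11.8 with Lin28b, and 5.41 and 5.22 with BM empty vector. In the limma test on the authors' deposited table, S100a8 differed by 2.88 and S100a9 by 4.11 with Lin28b, with adjusted p of 0.437 and 0.368. These differences were smaller than those from the scanner files, and the second Lin28b array was again the brightest.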

How the data were processed

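RNA of 8 samples of pro-B cells was amplified (100 ng of total RNA, per the labels) and hybridised to 1-colour Agilent arrays. The deposited scanner files hold spot intensity values corrected for background by Agilent Feature Extraction 9.5.3.1, per the file headers, and probe positions of build mm9. The authors also deposited a table of normalized log2 values, by a method the sources used here do not give. Its column medians (7.22 in BM, 6.16 in FL) differ by tissue, so it was used within a tissue only.

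Of 44397 spots, 1377 control spots were left out. Processed signals were divided by the 75th percentile of their array and put on the log2 scale, with copies of a probe averaged. Of 39429 probes, 31 with an outlier spot and 10988 well above background on fewer than 2 arrays were left out, which kept 28410. limma 3.58.1 in R 4.3.3 (lmFit, eBayes, prior degrees of freedom 1.72) fitted 4 group means over 8 arrays. P-values were adjusted by Benjamini-Hochberg over all kept probes, called below 0.05. Simulated data with known changes were run through the fit. Their noise was drawn independently for each array, without a shared slide or a detection limit, so they do not test the fit under those. Kept probes were named through a RefSeq table by accession (19857), symbol (1960) or synonym (563), and 6030 kept the file's name. For gene lists the brightest kept probe per gene was used.

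For a fold bound, a dim reading of the lower group was raised to the lowest signal that was well above background on its array. Where the text says so, gaps, pair differences and ranges were recomputed with every dim reading raised this way, a step added after seeing the data. Alternatives were quantile scaling, normexp (offset 50), the authors' table, no filter, only 2 groups, the replicate block, trend and robust variance, the brightest probe, and each array left out. No scaling and slide as a random block were added after seeing the data. The members and gene lists were chosen with earlier results of these data known. Genes named beside the members are up to 4 per list and comparison by smallest p, and those well above background on all 8 arrays or on 1 array. Other named genes (such as Camp, Chil3, Pira2 and the markers below background) were picked once their values had been seen. The number of arrays limits the precision.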

Additional observations from a re-analysis of the deposited data

How the results depend on the processing

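The count of member probes called stayed at 0 with Lin28b under every setting, and between 5 and 9 in FL over BM (8 as reported, 5 without scaling, 6 with quantile scaling, 6 with slide as a random block, 6 with the brightest probe per gene, 6 to 8 with each array left out). With let-7 it was 1 with quantile scaling and 1 with slide as a random block, Lyz1 in both, and 0 otherwise. No slide held both tissues, so the slide block cannot separate slide from tissue in FL over BM. With the replicate number as a block, 9 member probes were called in FL over BM (Ctsg was added, adjusted p = 0.0326) and 0 in the other comparisons. Deviations of same-numbered arrays correlated at -0.06 in BM and 0.51 in FL, where the number is also the slide, and whether a number marks 1 sort is not stated.

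With Lin28b no member changed sign. With let-7, differences turned for S100a9 (-0.10 with quantile scaling, -0.14 in the authors' table), S100a8 (0.80 with normexp, 0.29 without scaling) and Cebpa (0.20 with quantile scaling, 0.80 with normexp, 0.0213 in the authors' table, 0.14 without scaling). With normexp, Csf1r a gave 0.0212, Csf1r b 0.61, Tyrobp 0.16 and Ctsg 0.71, and without scaling Csf1r a gave 0.26 and Csf1r b 0.0746. With each array left out in turn, the let-7 difference ran from -2.84 to 3.51 for S100a9, -2.72 to 2.52 for S100a8, -1.28 to 0.78 for Cebpa, -0.45 to 1.57 for Lyz2, -0.33 to 0.54 for Fcer1g, -0.35 to 0.0835 for Csf1r a and -1.46 to 0.00802 for Ctsg. In FL over BM, Cebpa gave -0.95 with quantile scaling, -1.81 without scaling and -0.35 to 1.71 with each array left out, Ctsg -0.20 with quantile scaling and -1.59 without scaling, and Lyz2 0.73 with normexp. Without scaling Csf1r a gave -0.58, Csf1r b -0.75, Tyrobp -0.19 and Fcer1g -1.39. The cause of these turns was not tested.

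Over all probes, quantile scaling moved the median of FL over BM to -0.02, against 0.47 as reported, and the share of calls that were higher to 46.1%, against 66.4%. Normexp gave 0.97 and 84%, no filter 1.01 and 77.5%, and no scaling -2.01 and 2.32%. Calls over all probes with let-7 were 7 as reported, 74 with quantile scaling, 89 with trend and robust variance, 256 with slide as a random block, 625 without FL empty vector replicate 1, 7 with the brightest probe per gene and 0 under the other settings. With Lin28b there was 1 call as reported and 0 to 6 under the other settings. In FL over BM there were 16734 as reported and 10932 to 23400 otherwise. Signal over background limits S100a8, S100a9, Lyz2, Cebpa and Ctsg, each not well above background on at least 2 arrays.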
